A study of Homo sapiens with 9 samples.

Results

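The chaperonin TRiC, also called CCT, is built from 8 related subunits, encoded by TCP1 (subunit alpha), CCT2 (beta), CCT3 (gamma), CCT4 (delta), CCT5 (epsilon), CCT6A (zeta), CCT7 (eta) and CCT8 (theta). These 8 genes were taken by symbol, whatever their values, from the 60683 genes counted in 9 RNA-seq libraries of human cells. All 8 had an entry and passed the filter on low counts in each comparison.

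TRiC is a cytosolic machine of stacked rings that encloses newly made proteins and uses ATP to fold them. Its best known clients are actin and the tubulins, which reach it with the help of prefoldin, and it also folds WD40-repeat proteins. Each ring holds 1 copy of each of the 8 subunits, and in the ring CCT4 sits between TCP1 and CCT2. TRiC is also known for binding polyglutamine proteins, which expanded CAG codons encode, and for limiting their aggregation.

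The study compared parental HEK293T cells, an established line of human embryonic kidney origin, with a pair of lines made from them, each of which is a single-cell clone. Both clones carry ATG-(CAG)60-Myc-NLuc, a luciferase reporter downstream of 60 CAG units, together with ATG-(CAG)0-Myc-FLuc, a reporter without the repeat, integrated by the piggyBAC transposon; clone 37 was chosen for high and clone 15 for low expression of both. There were 3 libraries of each line, and no group carried the integrands without the selection of a clone. Since each level of expression is 1 clone, the reporter level and other differences between clones cannot be told apart, and the read length, 100 bp for clone 15 and 75 bp for the other lines, cannot be told apart from clone 15 either.

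Gene counts summed to 10334090 to 38093340 per library, the highest totals being those of clone 15, and the subunits were counted deeply in all of them. The clone 15 libraries stood apart in their reads: 33.7% to 34.6% of their read pairs had no annotated feature on the transcript strand, against 19.2% to 29.9% in the other lines, and 4.59% to 5.98% mapped to several places, against 10.4% to 14.0%. The part of this in the clone 15 values was not tested. Parental replicate 2 had the lowest share without a feature, 19.2%, and was the highest parental library for 8 of the 8 subunits. Clone 15 replicate 2 was the lowest of its group for 8 of 8, and clone 37 replicate 2 for 7 of 8. Of 5 markers of the HEK293 lineage, the neurofilament genes moved furthest: NEFM lay at 559 ± 79.2 CPM (SD, n = 3) in parental cells, 2728 ± 82.3 in clone 15 and 137 ± 2.06 in clone 37, and NEFL at 235 ± 21.8, 716 ± 17.9 and 60.7 ± 0.797 CPM. The others did not follow them: PAX2 (-0.01 in clone 37 and 0.10 in clone 15 on the log2 scale) and VIM (-0.03 in each) were not called, and EYA1 fell in both clones (-0.51 and -0.37). Of 4 blood and skin markers, 0 passed the filter. The reporter transcripts were not analysed here. Bulk RNA does not tell fewer cells with a transcript from less of it per cell.

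All 8 subunit genes were among the strongly expressed genes of these cells. Per kilobase of the longest annotated transcript, their parental levels lay between the 97.5th and the 99.2nd percentile of 12947 protein-coding genes with at least 1 CPM (gene counts scaled to the total of the library). Summed over the 8, the level was 3155 ± 232 CPM in parental cells (SD, n = 3; 3008 to 3422), 3390 ± 151 CPM in clone 15 (3228 to 3525) and 3583 ± 89.0 CPM in clone 37 (3494 to 3672). The clone 37 sums lay above those of the parental libraries, while those of clone 15 overlapped both.

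By GENCODE 29 on GRCh38, TCP1 (ENSG00000120438) lies at chr6:159778498-159789749 on the minus strand, CCT2 (ENSG00000166226) at chr12:69585334-69601570 on the plus strand and CCT3 (ENSG00000163468) at chr1:156308968-156367873 on the minus strand. CCT4 (ENSG00000115484, chr2:61868089-61888804, minus) and CCT7 (ENSG00000135624, chr2:73233420-73253021, plus) share chromosome 2. CCT5 (ENSG00000150753) lies at chr5:10249921-10266412 and CCT6A (ENSG00000146731) at chr7:56051630-56063989, both on the plus strand, and CCT8 (ENSG00000156261) at chr21:29055805-29073797 on the minus strand. Promoter windows of 250 bases before to 50 after a start were taken from a set of RefSeq promoters (GRCh38.p14). The set used here held 7 of the 8 genes and had no window for CCT6A. The letters CGGAAG, the core that ETS transcription factors recognise, were searched on both strands and were present for 5 of the 7 genes, namely TCP1, CCT2, CCT5, CCT7 and CCT8. CCT2 and CCT4 have a pair of windows each, so that 6 of 9 windows of the subunits held the core, against 19.5% of 35116 windows of all genes. The sites are shown because they are a sequence feature that several subunits share. The core is not particular to subunits that rose, since CCT7, not called against parental, has it. The letters GGGCGG were present for as many genes, TCP1 and CCT2 among them. Each is given on the strand of its gene, with the core or its reverse complement in capitals:
TCP1, chr6:159789699-159789724, minus strand, 112 bases before the start: cggagcctcaCTTCCGtcacagtcct
TCP1, chr6:159789782-159789807, minus strand, 195 bases before the start: caacatccgaCTTCCGttctccgctt
CCT2, chr12:69585434-69585459, plus strand, 15 bases before the start: tgtggcgtcaCTTCCGgcttccttca
CCT5, chr5:10250287-10250304, plus strand, 248 bases before the start: cgCTTCCGtagcggtctc
CCT7, chr2:73234235-73234260, plus strand, 63 bases before the start: catagagtagCGGAAGtggtccgttc
CCT8, chr21:29073615-29073640, minus strand, 18 bases after the start: cctccgcggtCTTCCGagcggtcgcg
In 6 of the 7 sites found the gene strand carries CTTCCG, and a second CCT2 start has the site that is not printed. CCAAT was present in 4 of the 9 windows (34.6% of all windows), GGGCGG, a GC box, in 6 of 9 (45.0%), and GAANNTTC or TTCNNGAA, a pair of heat shock element units, in 3 of 9 (13.5%), each searched on both strands. A match is a run of letters and does not show that a factor binds there.

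TCP1 and CCT2 rose in both clones. TCP1 was at 402, 457 and 401 CPM in parental replicates 1 to 3, at 598, 562 and 604 CPM in clone 15 and at 620, 604 and 624 CPM in clone 37. Every library of either clone was above every parental library. The difference from parental was 0.53 ± 0.07 on the log2 scale (SE; 1.44-fold; adjusted p = 6.29e-06) in clone 37 and 0.45 ± 0.09 (1.37-fold; adjusted p = 0.000232) in clone 15. CCT2, whose product also acts as an autophagy receptor for protein aggregates, was at 246, 279 and 249 CPM in parental cells, 382, 364 and 405 CPM in clone 15 and 407, 395 and 423 CPM in clone 37. Parental and clone libraries again did not overlap. Its differences were 0.64 ± 0.07 (1.56-fold; adjusted p = 3.96e-07) and 0.54 ± 0.09 (1.46-fold; adjusted p = 1.63e-05). TCP1 and CCT2 passed the test under 18 of 18 alternative settings in each clone. Between the clones neither passed: TCP1 was 0.07 higher in clone 37 (95% interval -0.04 to 0.18) and CCT2 0.10 higher (-0.02 to 0.21).

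**Figure D1:**
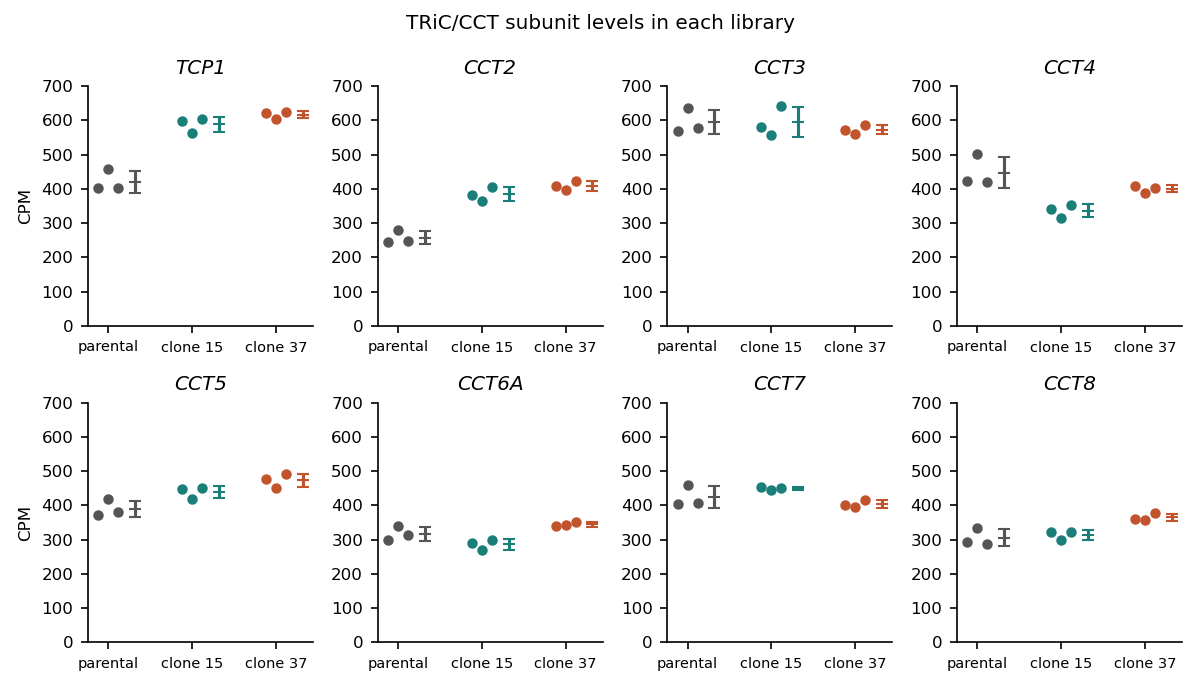
Level of each TRiC/CCT subunit gene in CPM (vertical axis from 0) in 3 parental, 3 clone 15 and 3 clone 37 libraries; points are libraries in replicate order and bars are mean ± SD. TCP1 and CCT2 lie higher in all 6 clone libraries than in all 3 parental ones, whereas CCT4 is lowest in clone 15.

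CCT4 went the other way. It was at 422, 501 and 419 CPM in the parental libraries, 341, 315 and 353 CPM in clone 15 and 409, 389 and 403 CPM in clone 37. Each clone 15 library lay below each library of the other lines, and each clone 37 library below each parental one. The gene fell by 0.45 ± 0.10 on the log2 scale in clone 15 (0.734-fold; adjusted p = 0.000371) and by 0.19 ± 0.07 in clone 37 (0.878-fold; adjusted p = 0.0425). The clone 37 call of a lower level held under 9 of 18 alternatives and was lost without any 1 of the 3 clone 37 libraries (adjusted p = 0.0989, 0.172 and 0.101 without replicates 1, 2 and 3). The value was -0.099 without parental replicate 2 and -0.28 without parental replicate 3. The call was also lost with RLE size factors (0.0511), without a filter (0.0520), with unstranded counts (0.0509) and with all 9 libraries (0.0570). Between the clones, CCT4 was 0.26 ± 0.06 higher in clone 37 (adjusted p = 0.000252).

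CCT5 and CCT8 rose in clone 37. CCT5, a subunit that can form rings on its own, was at 372, 417 and 379 CPM in parental cells, 447, 417 and 450 CPM in clone 15 and 477, 451 and 490 CPM in clone 37. The clone 37 libraries lay above the parental ones and the clone 15 libraries overlapped them. The differences were 0.25 ± 0.07 in clone 37 (adjusted p = 0.00432) and 0.14 ± 0.09 in clone 15 (adjusted p = 0.203; 95% interval -0.05 to 0.32). CCT8 was at 294, 334 and 289 CPM in parental cells, 323, 298 and 321 CPM in clone 15 and 359, 357 and 378 CPM in clone 37. Again clone 37 lay apart from parental and clone 15 did not. CCT8 differed by 0.23 ± 0.07 in clone 37 (adjusted p = 0.00913) and by 0.01 ± 0.09 in clone 15 (adjusted p = 0.953; -0.18 to 0.19). Between the clones CCT8 was 0.22 ± 0.05 higher in clone 37 (adjusted p = 0.00107), and CCT5 0.11 higher, which missed the threshold (adjusted p = 0.0726). The clone 15 difference of CCT5 was called with protein-coding genes only (0.18, adjusted p = 0.0294), with GC and length trends removed (0.23, adjusted p = 0.0153) and without parental replicate 2 (0.22, adjusted p = 0.00699). Its difference between the clones was called without clone 37 replicate 2 (0.16, adjusted p = 0.0387). Both clone 37 calls were lost under some settings. Without clone 37 replicate 3 the adjusted p was 0.103 for CCT5 and 0.152 for CCT8, and without parental replicate 3 it was 0.0749 and 0.162. Without parental replicate 1 it was 0.0540 for CCT8, and with unstranded counts 0.0993. The CCT8 value fell to 0.14 without parental replicate 3.

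CCT3, CCT6A and CCT7 did not pass the test against parental in either clone. CCT3 was at 569, 634 and 578 CPM in parental cells, 581, 558 and 643 CPM in clone 15 and 572, 561 and 585 CPM in clone 37. All groups overlapped, and the 95% intervals were -0.22 to 0.06 for clone 37 and -0.23 to 0.16 for clone 15. Between the clones CCT3 was called without clone 15 replicate 2 (-0.12, adjusted p = 0.0199). CCT6A was at 299, 340 and 312 CPM in parental cells, 291, 268 and 298 CPM in clone 15 and 340, 341 and 353 CPM in clone 37. The 3 ranges followed one another without overlap, clone 15 lowest and clone 37 highest, but the nearest libraries of neighbouring groups were less than 1 CPM apart. CCT6A differed from parental by -0.18 ± 0.09 in clone 15 (adjusted p = 0.0849) and by 0.09 ± 0.06 in clone 37 (adjusted p = 0.235), and CCT6A was 0.27 ± 0.05 higher in clone 37 than in clone 15 (adjusted p = 0.000107). Without parental replicate 1 (adjusted p = 0.0447) or with all 9 libraries (0.0437) the clone 15 difference was called, and without parental replicate 2 the clone 37 difference was called (adjusted p = 0.00260). CCT7 was at 403, 460 and 407 CPM in parental cells, 454, 446 and 452 CPM in clone 15 and 400, 396 and 417 CPM in clone 37. Clone 37 lay below clone 15 in all 3 libraries. The difference between the clones was -0.15 ± 0.05 (adjusted p = 0.0118) and was called under 13 of 18 alternatives. That call was lost without clone 37 replicate 1 (adjusted p = 0.0851) or replicate 2 (0.0954), with unstranded counts (0.0530), with all 9 libraries (0.0830) and with GC and length trends removed (-0.05, adjusted p = 0.277). The differences of CCT7 from parental were -0.09 ± 0.07 in clone 37 and 0.06 ± 0.09 in clone 15, the latter called without parental replicate 2 (0.14, adjusted p = 0.0483).

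Counted over the family, clone 37 against parental gave 5 called subunits of 8, 4 higher and 1 lower. Of all 16501 genes tested in that comparison 54.0% were called, 26.7% higher and 27.3% lower. Clone 15 against parental gave 3 of 8, with 2 higher and 1 lower, against 51.4% of 17703 genes (25.1% higher and 26.2% lower). Clone 37 against clone 15 gave 4 of 8, 3 higher and 1 lower, against 57.7% of 17712 genes (28.7% and 29.0%). With calls this common among all genes and only 8 subunits, the number of called subunits does not set the family apart. The median log2 difference of the 8 was 0.16 in clone 37 and 0.03 in clone 15, where all genes tested had medians of 0.02 and 0.02, and it was 0.10 between the clones where all genes had -0.00. Leaving out 1 library moved these medians. In clone 37 the median was 0.090 without parental replicate 3. In clone 15 it was -0.027 without parental replicate 1, -0.034 without parental replicate 3, 0.084 without clone 15 replicate 2 and 0.12 without parental replicate 2, so that its sign turned. Between the clones it was 0.042 without clone 15 replicate 2 and 0.066 without clone 37 replicate 3. Both comparisons with parental share the same 3 parental libraries, so their values are not independent of each other. Without parental replicate 2, 6 of 8 subunits and 10027 genes in all were called in clone 37, in place of 8903 genes, and 5 of 8 subunits and 9071 genes in clone 15, in place of 9092. Without clone 37 replicate 3, 2 of 8 subunits and 7487 genes were called in clone 37, and without parental replicate 3, 3 of 8 subunits and 8305 genes.

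**Figure D2:**
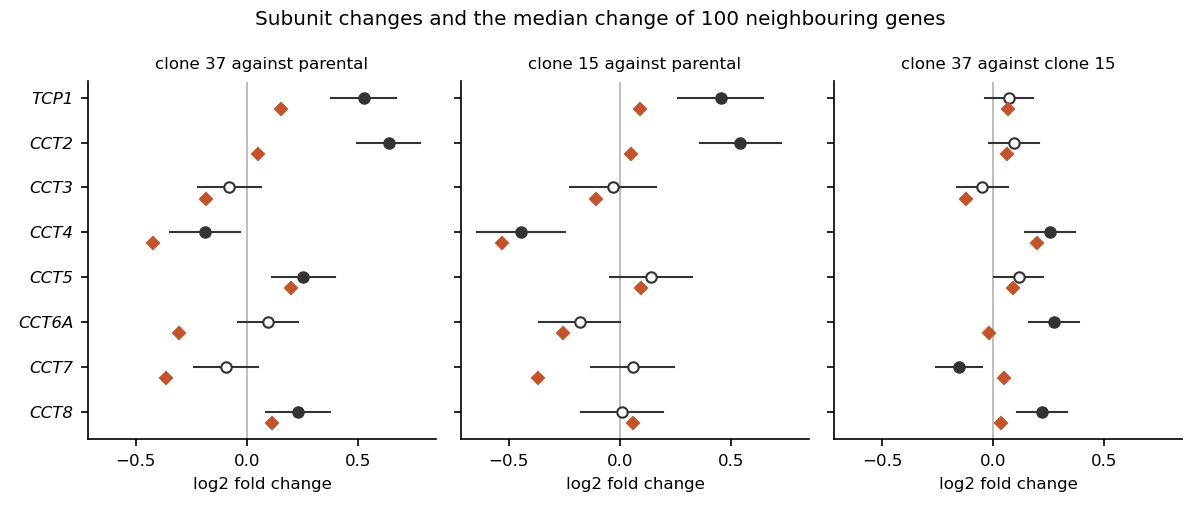
Log2 fold change of each subunit gene (circles, with 95% intervals; filled where the adjusted p is under 0.05) and the median for the 100 genes that lie nearest to it among those tested (diamonds), in 3 comparisons. TCP1 and CCT2 lie to the right of their neighbours in both clones, and CCT4 lies to the right of a neighbourhood that is itself lower, at -0.42 in clone 37 and -0.53 in clone 15.

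The balance among subunits was described as each gene's share of the summed CPM per kilobase of the longest annotated transcript. In parental cells CCT3 held the largest share, 20.9% ± 0.300 (SD, n = 3), and CCT5 the smallest, 8.01% ± 0.0995. The smallest depends on the length used: by coding length it was CCT2, at 8.29%, and by the union of exons CCT2, at 7.38%. The share of TCP1 was 12.7% ± 0.0720 in parental cells, 16.5% ± 0.202 in clone 15 and 16.5% ± 0.179 in clone 37. That of CCT2 went from 8.90% ± 0.0338 to 12.3% ± 0.153 and 12.5% ± 0.116 in the same order. CCT4 held 13.4% ± 0.399 in parental cells, 9.37% ± 0.141 in clone 15 and 10.6% ± 0.215 in clone 37. Clone and parental libraries did not overlap for these 3 genes, nor for any other subunit except CCT7 in clone 15. A share is defined among the 8 genes only, so no rate over all genes stands beside this. In CPM the groups did overlap for some of these genes, such as CCT3. A two-sided exact permutation test gave p = 0.1 for each share that did not overlap, the smallest that 3 against 3 libraries allow, so no share could pass 0.05.

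CCT3 held 19.4% ± 0.709 in clone 15 and 17.8% ± 0.0543 in clone 37. CCT7 held 15.8% ± 0.0184 in parental cells, 15.6% ± 0.579 in clone 15 and 13.3% ± 0.118 in clone 37. Its clone 15 share overlapped the parental one (exact permutation p = 0.7). CCT8 held 11.5% ± 0.165, 11.01% ± 0.220 and 12.2% ± 0.151, CCT6A 8.82% ± 0.188, 7.38% ± 0.0921 and 8.48% ± 0.119, and CCT5 8.01% ± 0.0995, 8.38% ± 0.112 and 8.61% ± 0.161 in parental, clone 15 and clone 37 cells. Shares sum to a whole, so higher shares of TCP1 and CCT2 leave less for the other 6 together. Between the clones the shares of TCP1 (exact permutation p = 0.7), CCT2 (0.3) and CCT5 (0.2) overlapped.

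**Figure D3:**
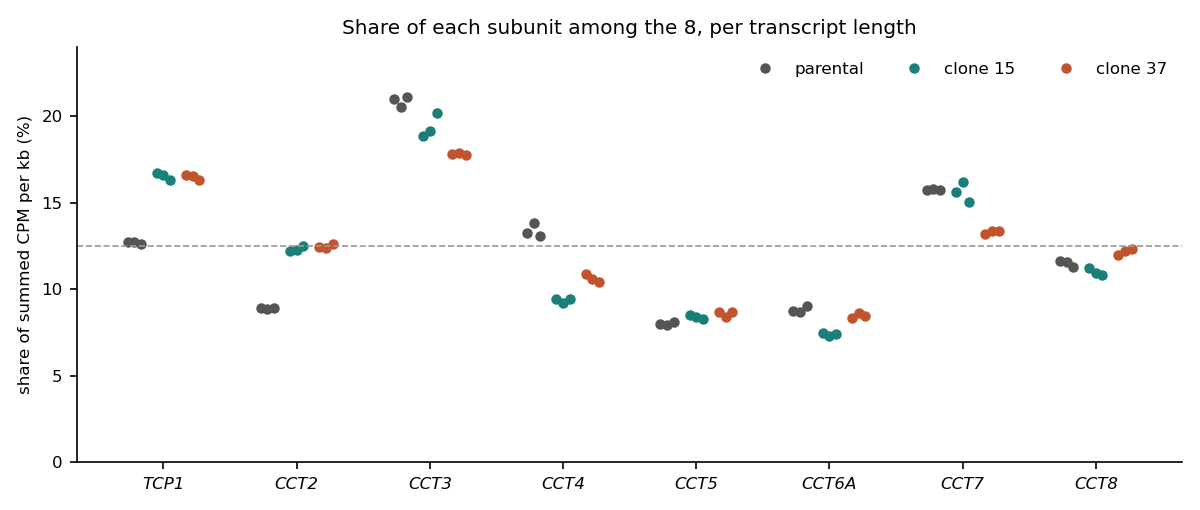
Share of each subunit gene in the summed CPM per kilobase of the 8 genes (percent, vertical axis from 0) in each of 9 libraries; the dashed line is an equal share. TCP1 and CCT2 move up in both clones, from 12.7% and 8.90% in parental cells, and CCT4 moves down from 13.4%.

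In order of CPM per kilobase, parental cells ran CCT3, CCT7, CCT4, TCP1, CCT8, CCT2, CCT6A and CCT5. CCT3 (276 ± 16.4 CPM per kb) exceeded CCT7 (208 ± 15.5) beyond the spread of libraries, and CCT8 (152 ± 12.3) exceeded CCT2 (118 ± 8.30). The ranges of the neighbours from CCT7 to CCT8, and of those from CCT2 through CCT6A (117 ± 7.58) to CCT5 (106 ± 6.67), overlapped across libraries. Parental replicate 2 was high for all 8, and within a library each of these neighbours stood above the next in 3 of 3 libraries, except CCT2 above CCT6A in 2 of 3. In both clones the order ran CCT3, TCP1, CCT7, CCT2, CCT8, CCT4, CCT5 and CCT6A. TCP1 had moved from the fourth place to the second, at 235 ± 9.07 CPM per kb in clone 15 and 247 ± 4.21 in clone 37, and CCT4 from the third to the sixth, at 133 ± 7.80 and 159 ± 4.13. In clone 37 the ranges of CCT2 and CCT8 overlapped, though CCT2 was above CCT8 in each of the 3 libraries, and CCT5 was above CCT6A in 2 of 3. The highest level was 2.61 ± 0.0102 times the lowest in parental cells (SD, n = 3), 2.63 ± 0.0993 times in clone 15 and 2.12 ± 0.0157 times in clone 37. These orders hold for that length. By coding length, by the union of exons or by unstranded counts the order was another one in each line, with lengths shortened by 200 bases CCT5 and CCT6A changed places in clone 37, and CCT4 was the highest parental subunit by the union of exons.

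Scaling each library to the summed counts of the 8 subunits, an alternative chosen after seeing the data, gave changes relative to the family. The median of all genes then stood at -0.14 for clone 37 and -0.06 for clone 15 against parental, and at -0.09 for clone 37 against clone 15. Relative to the family, 5 of 8 were called in clone 37 against parental, where 45.4% of all genes were. TCP1 (0.37) and CCT2 (0.48) stayed higher, CCT4 (-0.34, adjusted p = 0.000122), CCT7 (-0.25, adjusted p = 0.000475) and CCT3 (-0.24, adjusted p = 0.000598) were lower, and CCT5 (0.10) and CCT8 (0.07) were not called. In clone 15 there were 4 of 8 (41.9% of all genes), namely TCP1 (0.38), CCT2 (0.47), CCT4 (-0.52) and CCT6A (-0.26, adjusted p = 0.00489). Between the clones there were 5 of 8 (53.2% of all genes), with CCT4 (0.17), CCT6A (0.19) and CCT8 (0.14) higher in clone 37 and CCT3 (-0.13) and CCT7 (-0.24) lower. On this scale a change is a change of proportion, not of level. The 8 tested genes themselves set the scale, so variation that they share between libraries is taken out of their errors. The SE of TCP1 in clone 37 against parental was 0.04, in place of 0.07 before. In that comparison 1955 of all genes were called higher and 5539 lower, so the share of all genes is a shifted background.

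Several subunit genes lay in stretches of chromosome whose genes moved together. Of the 100 tested genes nearest to CCT4, 87.0% were lower in clone 37 than in parental cells, with 63 called lower and 3 higher, and a median of -0.42; in clone 15, 90.0% were lower, with a median of -0.53. Around CCT7, on the same chromosome, the medians were -0.37 in each clone, and around CCT6A -0.31 in clone 37 and -0.25 in clone 15. Around TCP1 they were 0.15 and 0.09, around CCT2 0.05 and 0.05, around CCT5 0.20 and 0.09, and around CCT8 0.11 and 0.06. Around CCT3 they were -0.19 and -0.11. The part of these neighbourhoods in the subunits' own changes was not tested.

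Set against the median of its neighbours, CCT4 was no longer lower. It stood 0.24 above them in clone 37 (adjusted p = 0.0172) and 0.09 above in clone 15 (adjusted p = 0.499), so its direction reversed. CCT7 stood 0.27 above its neighbours in clone 37 (adjusted p = 0.00375) and 0.43 above in clone 15 (adjusted p = 0.000449), and CCT6A 0.40 above in clone 37 (adjusted p = 7.27e-05) and 0.07 above in clone 15 (adjusted p = 0.536). TCP1 stood 0.37 and 0.36 above, and CCT2 0.59 and 0.49 above, each still called. CCT5 (0.06 and 0.04) and CCT8 (0.11 and -0.05) were not. By this measure 5 of 8 subunits were called in clone 37 (43.0% of all genes) and 3 of 8 in clone 15 (42.6%), all of them higher. Between the clones 3 of 8 were called (50.8% of all genes): CCT6A (0.29) and CCT8 (0.18) higher and CCT7 (-0.20) lower in clone 37, with CCT4 at 0.06 (adjusted p = 0.405). The neighbours' median was taken as known, so its own error is not in these p-values.

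**Figure D4:**
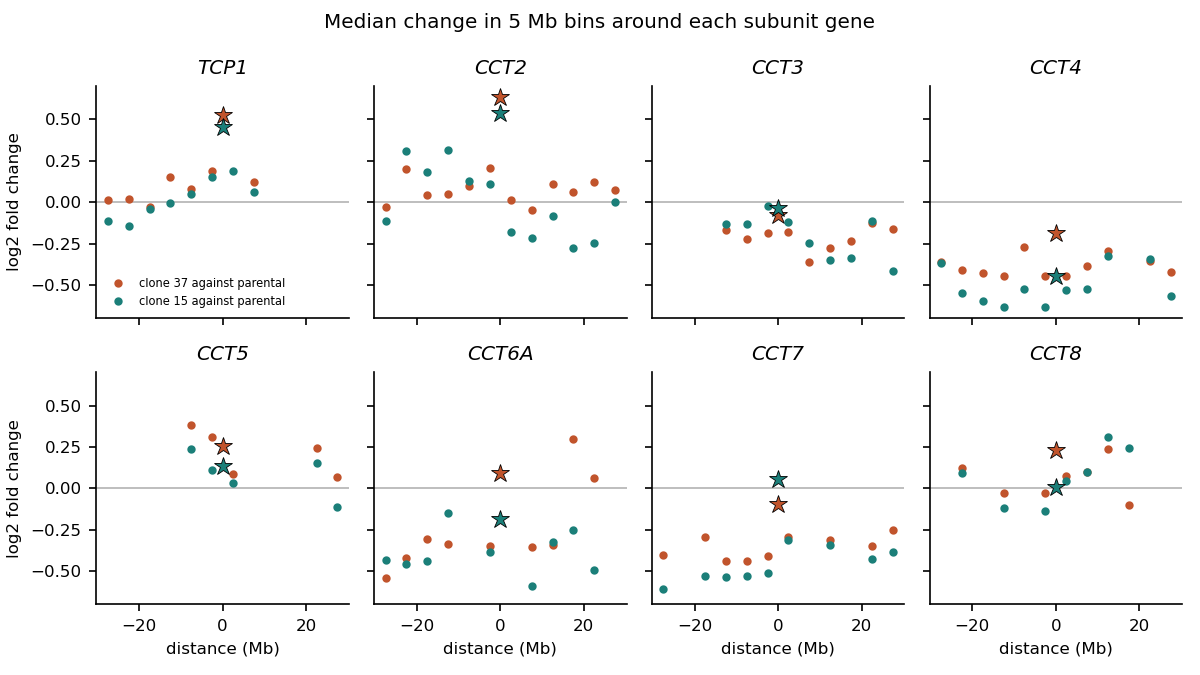
Median log2 fold change of tested genes in bins of 5 Mb around each subunit gene (points; horizontal axis, distance in Mb from the gene) and the log2 fold change of the gene itself (stars), for clone 37 and clone 15 against parental. The bins around CCT4 and CCT7, which share part of chromosome 2, lie below 0 on both sides, while TCP1 and CCT2 stand above the bins around them.

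Of the 8 genes, 6 start within 1000 bases of a gene on the other strand. TCP1 starts 63 bases from MRPL18, which encodes a protein of the mitochondrial ribosome. MRPL18 was at 48.0, 57.1 and 51.2 CPM in parental cells, 83.7, 80.6 and 77.8 CPM in clone 15 and 86.6, 79.7 and 86.5 CPM in clone 37. As for TCP1, no clone library overlapped a parental one. MRPL18 rose by 0.66 ± 0.07 on the log2 scale in clone 37 (adjusted p = 8.76e-07) and by 0.60 ± 0.09 in clone 15 (adjusted p = 4.20e-06), beside 0.53 and 0.45 for TCP1.

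The other pairs were less alike in what passed the test. CCT6A starts 26 bases from PSPH, phosphoserine phosphatase of serine synthesis. PSPH fell from 46.8 ± 2.46 CPM in parental cells (n = 3) to 30.1 ± 2.63 in clone 15 and 32.9 ± 0.564 in clone 37, with log2 differences of -0.66 ± 0.09 (adjusted p = 1.72e-06) and -0.54 ± 0.07 (adjusted p = 8.30e-06), while CCT6A passed in neither. CCT7 starts 182 bases from PRADC1. PRADC1 was at 8.08 ± 0.855 CPM in parental cells, 10.8 ± 0.756 in clone 15 and 5.54 ± 0.256 in clone 37. Its log2 differences were -0.58 ± 0.15 for clone 37 (adjusted p = 0.00445) and 0.38 ± 0.15 for clone 15 (adjusted p = 0.0321) against parental, and -0.96 ± 0.14 between the clones (adjusted p = 8.54e-07). Those of CCT7, in the same order, had the same signs and were smaller, at -0.09, 0.06 and -0.15, and only the last passed. COMMD1, a regulator of copper handling that starts 80 bases from CCT4, was at 8.86 ± 0.781, 9.63 ± 0.592 and 7.15 ± 1.65 CPM in parental, clone 15 and clone 37 cells. It passed in neither comparison with parental and was lower in clone 37 than in clone 15 (-0.41 ± 0.15, adjusted p = 0.0196), where CCT4 was higher. ATPSCKMT, which starts 24 bases from CCT5, was at 23.0 ± 1.53, 21.8 ± 0.685 and 23.5 ± 0.509 CPM and passed in no comparison. MIR3913-1, 511 bases from CCT2, had 0 counts, which says little in libraries of long RNA.

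**Figure D5:**
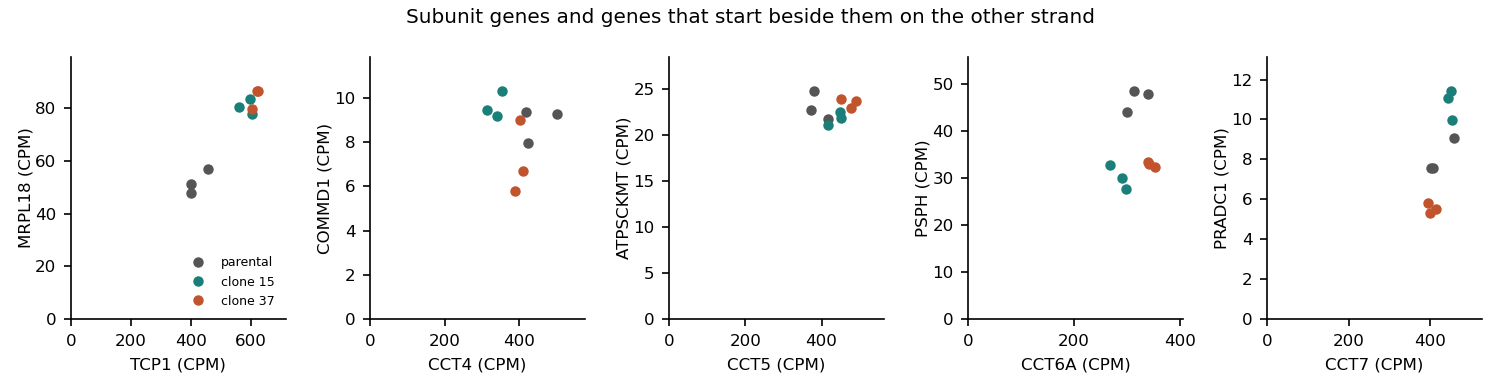
Level of 5 subunit genes (horizontal axes, CPM) against that of the gene that starts beside each on the other strand (vertical axes, CPM, from 0), 9 libraries each. TCP1 and MRPL18 are both lower in the 3 parental libraries than in the 6 clone libraries. PSPH is higher in parental cells than in both clones, whereas CCT6A is higher in parental cells than in clone 15 only.

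How reads are assigned bears on some of these levels. ACAT2 overlaps TCP1 by 558 bases on the other strand. Counts on the strand opposite to TCP1 were 4.69%, 5.46% and 4.40% of those on both strands together in parental, clone 15 and clone 37 cells. Without strand, 65.3% of the CCT4 count was left in parental cells, 74.6% of CCT5, 84.5% of CCT8 and 88.4% of TCP1. Other genes hold 47.5% of the 75-base words of the longest CCT5 transcript, 14.8% of those of TCP1 and 8.54% of those of CCT4, but nearly all of these lie on the other strand. In the same direction the shares were 0.778% for CCT5, 1.40% for TCP1, 1.40% for CCT6A, 1.29% for CCT8 and 0 for the rest. Of 14 pseudogenes of the family, 4 had at least 10 counts in any library, namely CCT4P2, CCT6P3, CCT6P1 and CCT8P1.

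The subunits did not vary as 1 unit over the 9 libraries. The log2 CPM of TCP1 and CCT2 had a Pearson r of 0.997, and that of CCT2 and CCT4 an r of -0.54, the highest and lowest of the pairs. These points share 3 groups, so r mostly describes the group means and is given without a test. The genes whose log2 CPM was most like the mean of the 8 subunits, among 11307 protein-coding genes of at least 5 CPM, were TXNL1 (r = 0.984), RPAP3 (0.978), NDUFAF2 (0.971), COIL (0.966) and ATE1 (0.964). RPAP3, a partner of the HSP90 machinery, was at 71.9 ± 7.41 CPM in parental cells, 81.6 ± 7.68 in clone 15 and 94.9 ± 6.68 in clone 37 (SD, n = 3). TXNL1, a thioredoxin-like protein, was at 43.6 ± 3.39, 48.0 ± 3.91 and 52.5 ± 2.25 CPM. These genes were chosen for their likeness, so their order of groups is a description.

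Other genes of the pathway were counted by list, and their counts stand against 54.0%, 51.4% and 57.7% of all genes called for clone 37 and clone 15 against parental and for clone 37 against clone 15. No list was tested against these shares. Genes that deliver substrates to TRiC moved in part. Of 6 prefoldin subunits, 4 rose and 0 fell in clone 37, and 3 rose and 0 fell in clone 15. PFDN4 went from 24.7 ± 2.36 CPM in parental cells (n = 3) to 34.7 ± 3.78 in clone 37 (log2 difference 0.47, adjusted p = 0.000608), and PFDN2 from 39.9 ± 3.92 to 51.4 ± 2.58 (0.34, adjusted p = 0.00204). In clone 15 the largest were PFDN6 (0.76, adjusted p = 1.58e-05) and PFDN1 (0.57, adjusted p = 1.19e-05). Between the clones 2 were higher and 4 lower in clone 37, PFDN4 by 0.48 and PFDN6 by -0.44. The list's medians were 0.24, 0.30 and -0.28 in the 3 comparisons, beside 0.02, 0.02 and -0.00 for all genes.

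Of 3 tested phosducin-like and thioredoxin-like cofactors, which modulate TRiC, 1 rose and 0 fell in clone 37, and 0 rose and 1 fell in clone 15. Both calls were TXNDC9, at 23.2 ± 2.58 CPM in parental cells, 18.2 ± 2.23 in clone 15 and 28.8 ± 0.427 in clone 37 (n = 3). PDCL3 was 0.40 higher in clone 37 than in clone 15. Of the 5 cofactors that assemble tubulin after TRiC, 1 rose in clone 37 (TBCD, 0.19) and 3 in clone 15 (among them TBCC, 0.37, and TBCB, 0.29), with 0 lower in either and 0 called between the clones.

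Of 11 tested actin and tubulin genes, the main clients, 6 rose and 1 fell in clone 37, and 7 rose and 1 fell in clone 15. TUBA1C was at 187 ± 16.6 CPM in parental cells (n = 3), 300.1 ± 16.1 in clone 15 and 302 ± 16.9 in clone 37, and rose by 0.66 in clone 37 (adjusted p = 5.89e-07). TUBG1, gamma-tubulin, rose by 0.45 in clone 37. TUBB4B, a beta-tubulin, went from 235 ± 16.4 CPM to 473 ± 30.4 CPM in clone 15 (0.98, adjusted p = 2.14e-09) and TUBB6 by 0.86. Between the clones 1 was higher and 7 lower in clone 37, TUBB4B by -0.76 and TUBB6 by -0.45. The medians of the list were 0.22, 0.28 and -0.20.

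Of 11 other clients, 5 rose and 2 fell in clone 37, 6 rose and 3 fell in clone 15, and 4 were higher and 6 lower in clone 37 than in clone 15. CDC20, an activator of the anaphase-promoting complex, rose by 0.48 in clone 37 and 0.90 in clone 15, and the deacetylase HDAC3 fell by 0.33 in clone 37. WRAP53, a telomerase protein, was at 25.9 ± 0.664 CPM in parental cells (n = 3), 49.7 ± 1.91 in clone 15 and 31.7 ± 0.804 in clone 37. MLST8, a subunit of mTOR complexes, was 0.58 higher in clone 37 than in clone 15.

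Related chaperonin genes were also measured. Of 6, 2 rose and 0 fell in clone 37, 1 rose and 3 fell in clone 15, and 6 of 6 were higher in clone 37 than in clone 15. MKKS rose by 0.62 and BBS12 by 0.37 in clone 37; these and BBS10 belong to the group that assembles the BBSome. BBS10 fell by 0.35 in clone 15. CCT6B, a close copy of CCT6A, was at 2.73 ± 0.306 CPM in parental cells (n = 3), 0.934 ± 0.300 in clone 15 and 2.35 ± 0.797 in clone 37, and fell by 1.52 in clone 15 (adjusted p = 0.000127). Its low counts make that value less precise than those of the subunits.

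Of the 3 regulators listed, 2 rose in clone 37 and 2 fell in clone 15. MYC was at 169 ± 7.12 CPM in parental cells (n = 3), 125 ± 4.88 in clone 15 and 234 ± 1.70 in clone 37, with log2 differences from parental of 0.45 in clone 37 (adjusted p = 4.37e-06) and -0.46 in clone 15 (adjusted p = 3.32e-05). HSF1, the main heat shock factor, rose by 0.26 in clone 37, and HSF2 fell by 0.50 in clone 15. All 3 were higher in clone 37 than in clone 15, MYC by 0.91 and HSF2 by 0.56. Of the subunits, CCT4, CCT6A and CCT8 were higher, CCT7 was lower and the other 4 were not called in that comparison. Of 9 proliferation genes 3 rose and 4 fell in clone 37, and 3 rose and 3 fell in clone 15, with the replication helicase subunits MCM5 and MCM2 at -0.96 and -0.51 in clone 37, and BUB1, a mitotic checkpoint kinase, at -0.49 and MKI67 at 0.47 in clone 15. Between the clones 3 were higher and 3 lower in clone 37, MCM5 at -0.84 and MCM2 at -0.45. The part of proliferation in the subunits' values was not tested.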

How the data were processed

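Raw counts were deposited, 1 file for each of the 9 libraries of total RNA, depleted of ribosomal RNA and made with a directional kit, per the labels' protocols. Per the submitters' processing notes, FastQC 0.11.9 and STAR 2.7.10a were used with build hg38; the annotation release, trimming and filters are not given in the sources used here. Column 4 was used, since it held 92.6% to 94.0% of stranded gene counts; the 4 summary entries, which name no gene, stayed out of library sizes and tests. Reads that map to several places are not counted in such a table, and longer reads map uniquely more often.

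CPM were computed from these counts. Each comparison was fitted on its 6 libraries with edgeR 4.0.16 in R 4.3.3 (filterByExpr, TMM, robust glmQLFit, glmQLFTest). P-values were adjusted by Benjamini-Hochberg over all genes tested, and a gene was called under 0.05. The members and lists were chosen with earlier results of these data known. The text names all 8 subunits, the 2 called genes with the largest change of each other list in each comparison, the 5 genes most like the subunits' mean log2 CPM (prior 0.5), genes that start within 1000 bases on the other strand, and pseudogenes with at least 10 counts. Positions, lengths and neighbours come from GENCODE 29 on GRCh38. The labels do not say whether replicates were separate cultures, so p-values measure the spread between libraries, which may be technical; replicates differed by more than counting noise. Alternatives used DESeq2 1.42.0, RLE size factors, other filters, unstranded counts, all 9 libraries, thinned counts, protein-coding genes, GC and length offsets, chromosome neighbours, other lengths, leaving out each replicate and the replicate number as a block. Scripts were tested on simulated data. The other steps ran in Python 3.11.15 with matplotlib 3.10.9, scipy 1.17.1 and pandas 2.3.3.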

Additional observations from a re-analysis of the deposited data

Results flagged for a closer look

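For 4 subunits the change from parental differed between the clones by the direct test of clone 37 against clone 15, in edgeR's quasi-likelihood fit with Benjamini-Hochberg adjustment. On the log2 scale CCT4 was 0.26 higher in clone 37 (adjusted p = 0.000252), CCT6A 0.27 higher (adjusted p = 0.000107) and CCT8 0.22 higher (adjusted p = 0.00107), and CCT7 differed by -0.15 (adjusted p = 0.0118). The call held under 18 of 18 alternatives for CCT6A and CCT8, 17 of 18 for CCT4, which was lost against its chromosome neighbours, and 13 of 18 for CCT7. Calls were common in this comparison, at 57.7% of all genes tested, so their number says nothing particular of the subunits. In all 4, none of the 3 libraries of one clone overlapped the 3 of the other. The 4 were picked by a test on the same libraries, so this lack of overlap is no further support. The share of all genes without overlap was not computed.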

How the results depend on the processing

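Over the alternatives, TCP1 and CCT2 kept their call and direction against parental in each clone. The count of called subunits in clone 37 against parental was 3 with unstranded counts (8355 genes called in all) and 2 to 6 when 1 library was left out; in clone 15 it was 3 to 5. With a replicate block the counts were 4, 3 and 5, against 5, 3 and 4 without it, with 8375, 8708 and 10490 genes called in all; CCT4 was then not called in clone 37 (adjusted p = 0.0873) and CCT5 was called between the clones (0.0484). Same-numbered libraries had deviations correlated at -0.185 to 0.047 over 9 pairs, and pairs with unlike numbers reached 0.150. With 3 libraries in a group, these values cannot show whether same-numbered libraries shared a batch. Directions reversed as follows. Against neighbours, CCT3 was 0.10, CCT4 0.24 and CCT7 0.27 in clone 37; CCT3 0.078, CCT4 0.086, CCT6A 0.072 and CCT8 -0.053 in clone 15; and CCT3 0.073 between the clones. Scaled to the family, chosen after seeing the data, CCT6A was -0.065 in clone 37, CCT7 -0.013 and CCT8 -0.063 in clone 15, and TCP1 -0.013 between the clones. Unstranded counts gave CCT7 -0.0025 and CCT8 -0.029 in clone 15, protein-coding genes alone CCT3 0.013 in clone 15, and GC and length offsets CCT7 -0.095 in clone 15 and CCT3 0.047 between the clones. With 1 library left out, values in clone 15 ran from -0.090 to 0.042 for CCT3, from -0.0062 to 0.14 for CCT7 and from -0.064 to 0.10 for CCT8, and between the clones from -0.12 to 0.0016 for CCT3. The cause of these reversals was not tested. The ratio of highest to lowest subunit was 2.26, 2.03 and 1.71 in parental, clone 15 and clone 37 cells by coding length, 2.65, 2.02 and 1.77 by the union of exons, 3.49, 3.18 and 2.73 with unstranded counts, and 2.72 in parental and 2.18 in clone 37 cells with lengths shortened by 200 bases.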
